A study of Mus musculus with 4 samples.

Results

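Arterial endothelial cells of the hypoxic mouse lung were selected on the transcripts they carried, from single-cell RNA data. A cell was a member when it had at least 1 unique molecular identifier (UMI, a counted mRNA molecule) of Cdh5 or Cldn5 and at least 2 of the 4 arterial genes Gja5, Gja4, Dkk2 and Bmx. It also had to show fewer than 2 of the venous genes Slc6a2, Car8, Amigo2 and Selp, fewer than 3 of the aerocyte genes Ednrb, Fibin, Chst1 and Apln, no UMI of Ptprc, Col1a2 or Epcam, and under 1% haemoglobin UMIs. This gate held 919 of 44835 kept cells, namely 254 and 219 cells of the mutant libraries A and B and 271 and 175 cells of the WT libraries A and B. The same genes therefore cannot serve as findings, and all differences between these cells and other endothelial cells are given as descriptions.

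The tested mice carried Vegfr2Y949F, in which VEGFR2, the VEGF-A receptor encoded by Kdr, has phenylalanine in place of a tyrosine, and are called mutant here. Their controls were WT mice. Mice of both genotypes were on the C57BL/6J background, were 6 to 8 weeks old and spent 6 weeks in hypoxia, and each of the 4 libraries pooled lung cells of 2 mice. The sex of the mice and the meaning of the set letters A and B are not given in the labels, and no normoxic lungs were analysed here. The comparison asks how the arterial endothelium of hypoxic lungs differs between the genotypes.

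Arterial endothelial cells line the vessels that carry blood from the heart towards the capillaries. Notch signalling through the nuclear factor RBPJ and its targets of the Hey family maintains their identity, and they make gap junctions from connexin 40 (Gja5) and connexin 37 (Gja4), which pass electrical and calcium signals along the vessel wall. In chronic hypoxia the lung arteries narrow and their walls thicken, and signals from the arterial endothelium to the muscle layer, such as endothelin and nitric oxide, are part of that process.

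The promoters of the 3 genes that defined most members are shown because expression of these genes set the gate. They run from 250 bases before to 50 bases after the start in RefSeq, build GRCm38.p6, with the RBPJ core motif TGGGAA, searched on both strands (TTCCCA on the other), in capitals. Gja5 lies at chr3:97032152-97032451 on the plus strand, Gja4 at chr4:127313990-127314289 on the minus strand and Bmx at chrX:164258144-164258443 on the minus strand.
Gja5: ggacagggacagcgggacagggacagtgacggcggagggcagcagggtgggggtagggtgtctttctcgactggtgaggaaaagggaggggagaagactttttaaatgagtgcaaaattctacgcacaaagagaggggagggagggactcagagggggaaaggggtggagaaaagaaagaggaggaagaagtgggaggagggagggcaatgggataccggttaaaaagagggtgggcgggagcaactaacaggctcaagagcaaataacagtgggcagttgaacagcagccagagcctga
Gja4: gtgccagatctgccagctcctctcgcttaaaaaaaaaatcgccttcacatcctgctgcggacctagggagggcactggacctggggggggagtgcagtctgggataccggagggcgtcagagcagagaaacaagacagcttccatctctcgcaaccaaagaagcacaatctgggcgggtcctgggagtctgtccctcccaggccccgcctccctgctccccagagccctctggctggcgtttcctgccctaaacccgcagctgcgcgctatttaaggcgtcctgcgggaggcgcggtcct
Bmx: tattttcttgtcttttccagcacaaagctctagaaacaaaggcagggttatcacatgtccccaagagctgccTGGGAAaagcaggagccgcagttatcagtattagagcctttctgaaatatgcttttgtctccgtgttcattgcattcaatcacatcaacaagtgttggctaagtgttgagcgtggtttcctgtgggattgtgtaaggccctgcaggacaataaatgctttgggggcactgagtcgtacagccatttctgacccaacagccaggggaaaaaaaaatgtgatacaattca
The motif occurred once, in Bmx at position 73 of 300, and it occurred in 25.6% of 32851 promoters of the same length, so its presence sets no gene apart.

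The 4 deposited matrices held 15160 and 11992 barcodes for the mutants (library A, then B) and 13567 and 12568 for WT, with 83606389 to 96521589 UMIs per library. After filters, 10113 to 12441 cells per library were kept, with median counts of 4536 and 5742 UMIs in the mutants and 4549 and 5719 in WT, so the B libraries were deeper in both genotypes. Pairs of libraries shared 28 to 54 kept barcodes, and no arterial-gate barcode occurred in more than 1 library. Members were deeper than other endothelial cells, with medians of 8786 and 8981 UMIs in mutants and 7214 and 9304 in WT, against 4263 and 4992.5 in mutant and 3998 and 4895 in WT for the remaining endothelial cells. A gate that counts detected genes favours deep cells, so levels below are CPM (the count-per-million unit), a gene's part of all UMIs summed over the cells of a library, which does not grow with depth by itself. A sum of CPM does not tell many cells with a little RNA of a gene from a few cells with much of it. Since the library totals of the gate were 2931815 and 2324762 UMIs in mutants and 2550233 and 2164694 in WT, 1 UMI was worth less than 1 CPM.

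Among members, Gja4 was detected in 890 cells (96.8%), Bmx, a Tec-family kinase of arterial endothelium and endocardium, in 558 (60.7%), Gja5 in 513 (55.8%) and Dkk2, a secreted modulator of Wnt signalling, in 17 (1.85%). Gja5 stood at 69.2 and 88.6 CPM in mutant A and B and 91.8 and 89.2 CPM in WT A and B. Bmx stood at 83.6 and 86.9 CPM in mutants and 67.8 and 88.2 CPM in WT. The rule itself sets these levels apart from those outside the gate. The remaining 20588 endothelial cells, most of them capillary, had 3.9 to 6.8 CPM of Gja5 and 3.8 to 5.2 CPM of Bmx. A remaining cell could have at least 2 of the 4 genes only if it failed another part of the rule. The part of such cells in these levels was not tested. The rule left Gja4 less apart, at 285 and 351 CPM in mutant members and 329 and 337 CPM in WT members, against 173 to 263 CPM in the remaining cells. Cells with Ptprc and no UMI of Cdh5 or Cldn5 should lack Gja4 and Gja5. Of these Ptprc cells, 1.24 to 2.30% had a UMI of Gja4, 0.635 to 1.12% of Gja5 and 1.19 to 3.76% of Bmx. Their median depths were 3034.5 to 5062 UMIs. Bmx stood at 3.63 to 11.1 CPM in them, against the 3.8 to 5.2 CPM of the remaining endothelial cells, so they give no background for Bmx.

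Efnb2 and Hey1, the arterial markers that the gate did not use, were higher in members than in the remaining endothelial cells of the same library in all 4 libraries. Efnb2, which encodes the ephrin-B2 ligand that marks arteries against veins, stood at 705 and 717 CPM in mutant members and 639 and 510 CPM in WT members, against 548 and 414 CPM in mutant and 487 and 318 CPM in WT remaining cells. Hey1, a Notch target, stood at 194 and 151 CPM in mutant members and 163 and 117 CPM in WT members, against 137 and 78.7 CPM in mutant and 123 and 75.6 CPM in WT remaining cells. Cells of the venous gate (1235 cells) averaged 206 CPM of Efnb2 and 45.8 CPM of Hey1, and aerocytes, the large capillary cells of gas exchange (2736 cells by their gate), averaged 307 and 53.4 CPM.

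The label was met only in part. Markers of general capillary cells, the other capillary type of the lung, stayed high in the members: Gpihbp1, which carries lipoprotein lipase to the capillary lumen, stood at 778 and 891 CPM in mutant and 963 and 865 CPM in WT members, against 823 and 890 CPM in mutant and 997 and 947 CPM in WT remaining cells. Kit, a receptor tyrosine kinase of general capillary cells, stood at 245 and 216 CPM in mutant and 181 and 169 CPM in WT members, against 294 and 266 CPM in mutant and 255 and 230 CPM in WT remaining cells. In the Ptprc cells Gpihbp1 reached only 6.22 to 21.8 CPM. A UMI of Gpihbp1 was present in 90.4% of members and one of Kit in 67.9%. The members are therefore called arterial-gate cells below.

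**Figure D1:**
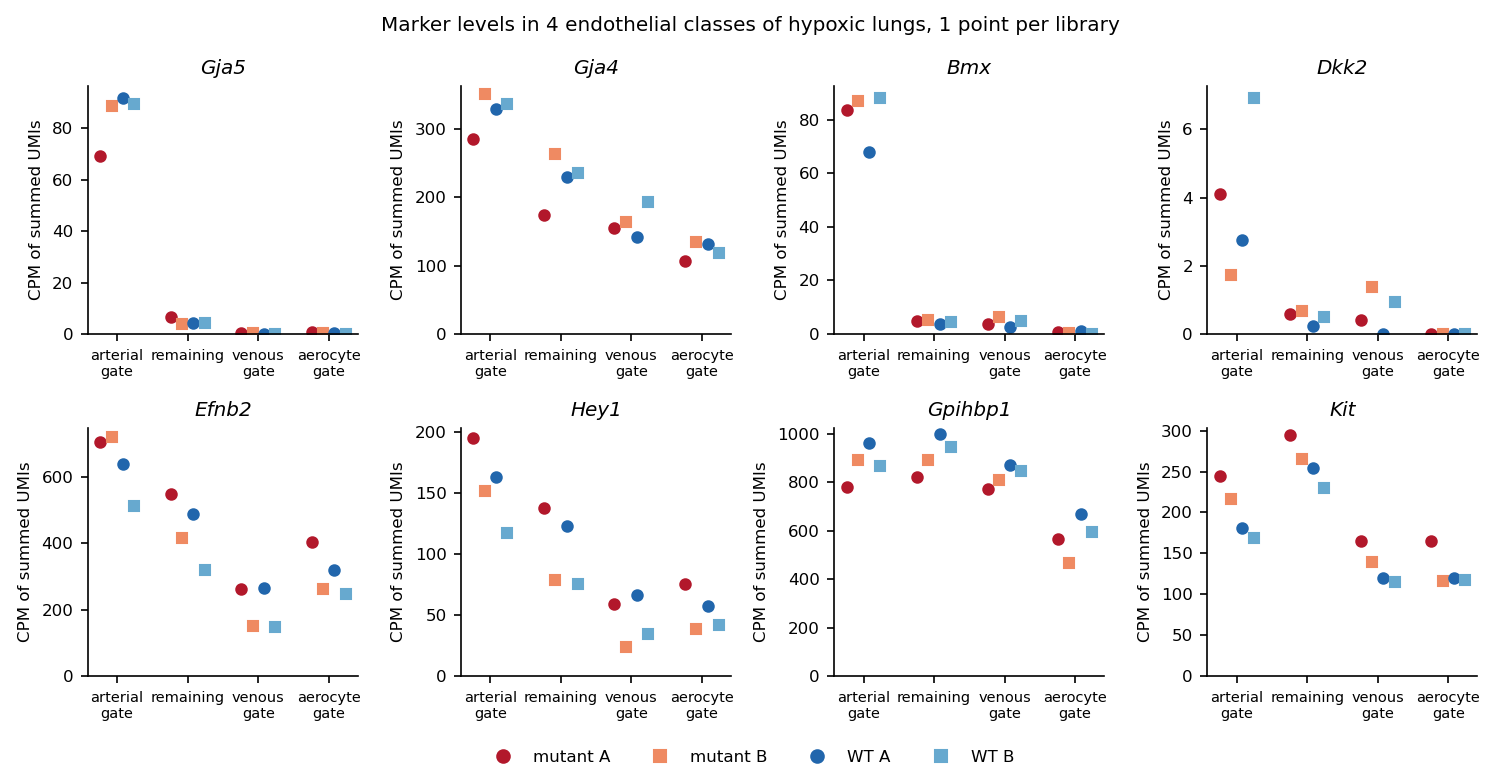
CPM of summed UMIs for 4 gate genes (Gja5, Gja4, Bmx, Dkk2), 2 arterial markers outside the gate (Efnb2, Hey1) and 2 general capillary markers (Gpihbp1, Kit) in the arterial gate, the remaining endothelial cells, the venous gate and the aerocyte gate, with 1 point per library and no error bars. The height of Gja5 and Bmx in the gate follows from the rule, Efnb2 and Hey1 stand above the other classes in each library, and Gpihbp1 at about the level of the remaining cells.

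The arterial-gate cells were not uniform. Of the 919, 402 (43.7%) had Gja4 with Bmx, 356 (38.7%) Gja5 with Gja4, 117 (12.7%) Gja5, Gja4 and Bmx, 27 Gja5 with Bmx, and 11 all 4 genes. The number of cells with at least 3 of the genes was 39 and 34 in the mutant libraries and 25 and 31 in the WT libraries. Over the summed libraries, cells with Gja4 and Bmx had 592 CPM of Efnb2, 2500 CPM of Cxcl12 and 422 CPM of Atp13a3. Cells with Gja5 and Gja4 had 647, 2495 and 317 CPM of these genes, so the pairs were near each other in Cxcl12 and differed more in Atp13a3.

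Several matrix and large-vessel genes were higher the more gate genes a cell had, from 1 gate gene on, while cells with none had somewhat more of them than cells with 1. Fbln5, which encodes fibulin 5, a protein needed to assemble elastic fibres, stood at 24.3, 15.4, 78.5, 271 and 2329 CPM in cells with 0, 1, 2, 3 and 4 gate genes. Mgp, matrix Gla protein, an inhibitor of vessel calcification, stood at 233, 140, 401, 1098 and 13624 CPM in the same order. Ltbp4, a fibulin 5 partner that binds latent TGF-beta, stood at 83.5, 56.1, 174, 495 and 1672 CPM. In each of the 4 libraries the level of all 3 genes was higher with 3 gate genes than with 2 and higher with 2 than with 1. Vwf, von Willebrand factor, common in large vessels, followed the same order, at 160, 137, 335, 1081 and 4434 CPM with 0 to 4 genes. The venous gate held these genes as well: all members averaged 145 CPM of Fbln5, 723 CPM of Mgp, 253 CPM of Ltbp4 and 536 CPM of Vwf, against 89.4, 509, 209 and 2469 CPM in the venous gate.

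Some capillary genes ran the other way, but not all. Kit stood at 261, 269, 222, 137 and 52.3 CPM with 0 to 4 gate genes, and Aplnr, the apelin receptor of general capillary cells, at 52.7, 55.0, 30.4, 15.7 and 14.9 CPM. Gpihbp1 was far lower only at the last step, with 897, 947, 904, 774 and 89.6 CPM. Plvap, another general capillary marker, did not follow: in mutant A it stood at 237, 195 and 314 CPM with 1, 2 and 3 gate genes. In mutant B it stood at 344, 473 and 838 CPM. Cxcl12, a chemokine made by arterial endothelium, peaked at 3637 CPM with 3 genes and was at 1090 CPM in the cells with 4. The 11 cells with all 4 genes thus combined the highest levels of elastic fibre and large-vessel genes in this order with the lowest Gpihbp1 and Kit, and came as 4 and 2 cells of mutant A and B and 2 and 3 cells of WT A and B. They hold too few cells per library for a comparison of genotypes. The median depth was 3652.5, 5502, 7894.5, 13273 and 8403 UMIs over the 5 steps, so depth went up with the first 4 steps as well, and its part in these steps was not tested.

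**Figure D2:**
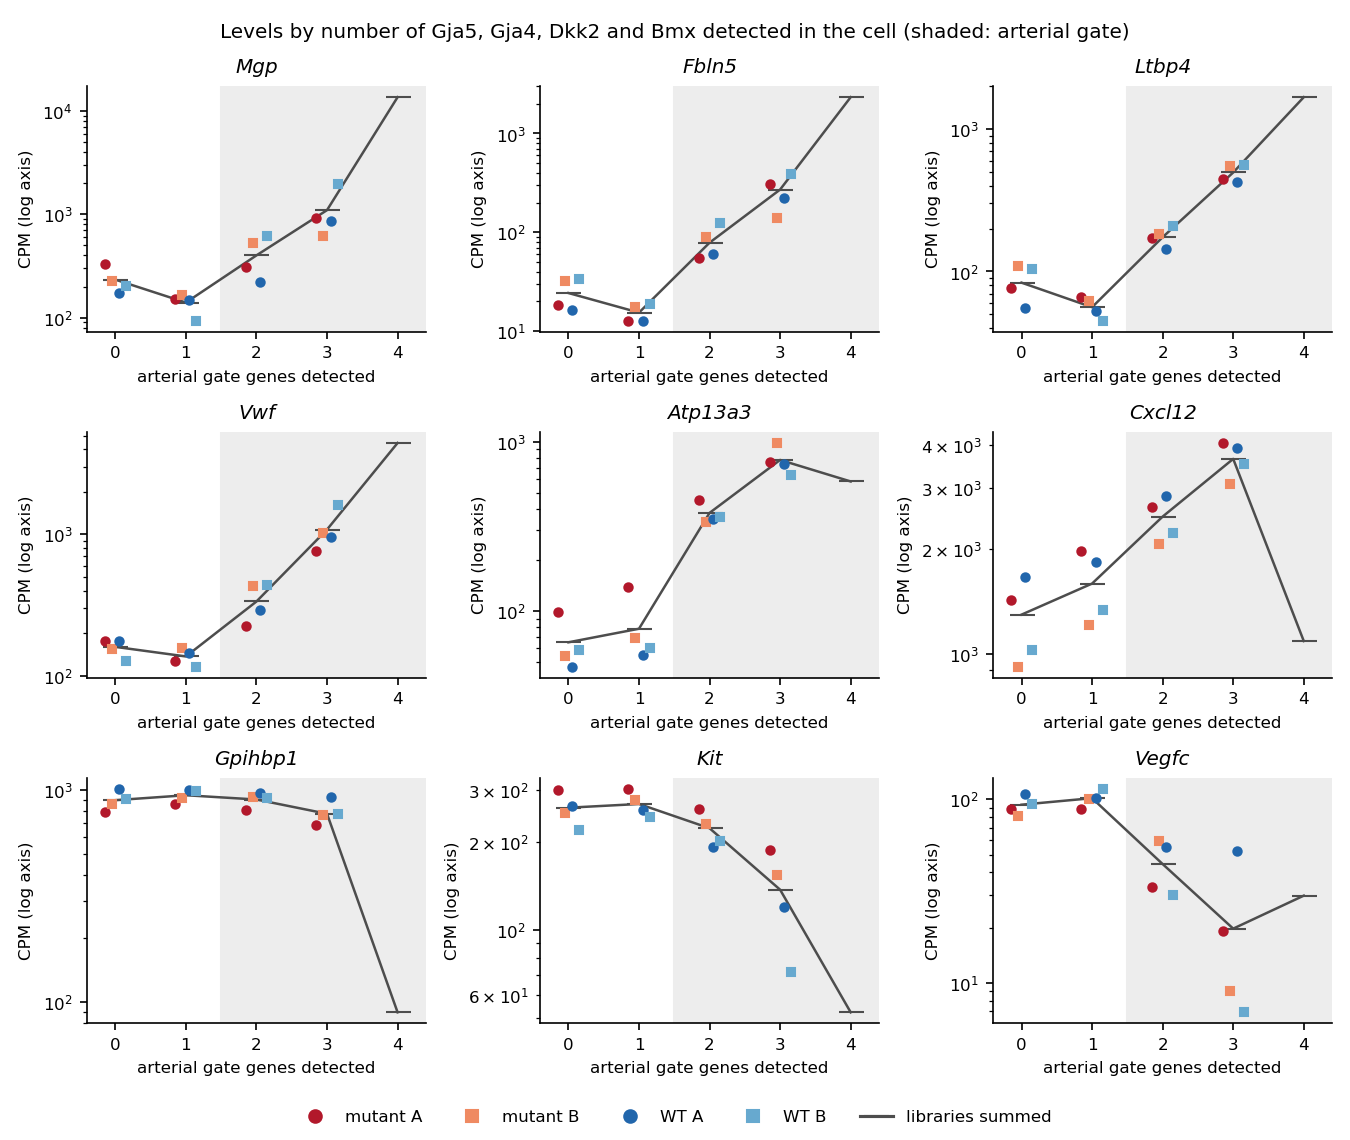
CPM on a log axis against the number of gate genes detected per cell, with 1 point per library for 0 to 3 genes and a line through the values of the summed libraries. Fbln5, Mgp, Ltbp4 and Vwf climb across the shaded gate, and Atp13a3 and Cxcl12 peak at 3 genes. The summed values of Gpihbp1, Kit and Vegfc are lower inside the gate than at 1 gene. Gpihbp1 is lowest in the 11 cells with 4 genes, at 89.6 CPM. In mutant B, Gpihbp1 is not lower with 2 genes (927 CPM) than with 1 (921 CPM).

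A small part of the members held most UMIs of some of these genes. The 46 cells with the most Mgp, 5% of the members, had 73.9% of all Mgp UMIs of the gate, and the corresponding 46 cells for Cytl1, a secreted cytokine-like protein, had 84.3% of its UMIs. For Fbln5 the share was 60.7%, and 26.7% of members had any Fbln5 UMI. Cxcl12 was spread evenly by comparison, with a UMI in 97.6% of members and 21.7% of its UMIs in the top 46 cells. Mgp also stood at 1283 and 1310 CPM in the Ptprc cells of mutant A and B and 953 and 802 CPM in those of WT A and B. These levels were above the members in every library but WT B. In the aerocyte gate Mgp stood at 103 to 165 CPM and in the remaining cells at 202 to 304 CPM. Whether a low Mgp count in a single cell was free RNA was not tested. Fbln5 stood at 10.0 to 25.4 CPM and Cytl1 at 0.383 to 0.790 CPM in the Ptprc cells, below the members in every library.

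Cells just outside the gate differed by which gene they had. With only 1 of the 4 genes, 382 endothelial cells had Gja5 or Bmx and 10012 had Gja4. The cells with Gja5 or Bmx alone had 642 CPM of Efnb2, 80.7 CPM of Fbln5, 293 CPM of Ltbp4 and 331 CPM of Atp13a3, against the 620, 78.5, 174 and 380 CPM of members with 2 genes. The cells with Gja4 alone had 443, 13.6, 49.4 and 71.2 CPM of these genes, against the 436, 24.3, 83.5 and 65.2 CPM of cells with none. Fbln5 was higher with Gja5 or Bmx alone than with Gja4 alone in each library, at 37.4 and 81.4 CPM against 11.98 and 15.6 CPM in mutant A and B and at 81.3 and 128 CPM against 10.9 and 16.2 CPM in WT A and B.

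Compared with the remaining endothelial cells of the same library, the arterial-gate cells carried more of several matrix and large-vessel transcripts and fewer aerocyte ones. All 4 aerocyte markers over 20 CPM were lower in all 4 libraries (median log2 ratio -0.96), as were 4 of 7 general capillary markers (median -0.09), and of 4 venous markers 2 were higher and 2 lower (median 0.39). Of 3559 genes outside the gate with a mean of at least 50 CPM in the higher class, 648 were higher and 713 lower in all 4 libraries, and the median log2 ratio over all of them was -0.01. Of these, 7 genes (Atp13a3, Adgrg6, Fbln5, Plac8, Fn1, Ltbp4 and Vwf) were higher and 2 (Ccl21a and Ptgs1) lower by more than 1 log2 unit in all 4 libraries. The values are log2 ratios of CPM + 1 with the SD over 4 libraries.

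Atp13a3, a transporter of polyamines in which variants have been linked to pulmonary arterial hypertension in humans, led the order (mm10 chromosome 16, 30312423 to 30405975, minus strand). It stood at 508 and 462 CPM in mutant members and 398 and 426 CPM in WT members, against 130 and 68.9 CPM in mutant and 52.9 and 60.8 CPM in WT remaining cells. The ratio was 2.59 ± 0.43, every member sum lay above every remaining sum, and the venous and aerocyte gates averaged 29.9 and 24.1 CPM. Adgrg6, an adhesion G protein-coupled receptor, had a ratio of 2.32 ± 0.66 and was as high in the venous gate, with 70.5 CPM there and 65.8 CPM in members.

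Plac8, between Fbln5 and Fn1 in the order, had a ratio of 2.26 ± 0.24, with a mean of 281 CPM in members, 211 CPM in the venous gate and 264 to 791 CPM in the Ptprc cells. Other genes of large vessels high in the order were higher still in the venous gate: Vwf had a ratio of 1.49 ± 0.55, the adhesion molecule Vcam1 1.37 ± 0.69 and Cytl1 1.35 ± 0.66, with means of 536, 78.6 and 75.9 CPM in members and 2469, 637 and 231 CPM in the venous gate.

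Matrix genes made up another group. Fbln5 stood at 136 and 111 CPM in mutant members and 91.0 and 243 CPM in WT members, against 24.4 and 27.6 CPM in mutant and 20.7 and 35.2 CPM in WT remaining cells, a ratio of 2.31 ± 0.36. Fn1, fibronectin, had a ratio of 1.96 ± 0.60, Ltbp4 1.69 ± 0.27, Mgp 1.43 ± 0.66, the proteoglycan Bgn 1.13 ± 0.60 and Fbln2, fibulin 2, 0.86 ± 0.39. WT B had the highest ratio of the 4 libraries for each of these 6 genes. In the Ptprc cells Fn1 stood at 141 to 211 CPM, above every member sum, and Bgn at 159 to 239 CPM, above the members in every library but WT B. Of the 18 elastic and basement membrane genes over 20 CPM, 8 were higher and 3 lower in all 4 libraries, with a median ratio of 0.16. The basement membrane collagens did not take part: Col4a1 had a ratio of -0.12 ± 0.08 and Col4a2 of -0.21 ± 0.12.

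Of the 27 arterial identity and Notch genes over 20 CPM, 18 were higher and 3 lower in all 4 libraries, with a median of 0.31. Gata6, a transcription factor with a ratio of 1.22 ± 0.33, Cxcl12 with 0.87 ± 0.16, the Notch ligand Dll4 with 0.57 ± 0.18 and Sema3g, a semaphorin of arterial endothelium, with 0.55 ± 0.12 were among those higher. Sox17, an arterial transcription factor linked to pulmonary arterial hypertension in humans, stood at 256 and 317 CPM in mutant and 293 and 282 CPM in WT members, against 228 and 253 CPM in mutant and 250 and 265 CPM in WT remaining cells, a ratio of only 0.20 ± 0.10. Notch1, Notch4, Jag1 and Jag2 differed little, with ratios of 0.12 ± 0.16, 0.07 ± 0.08, -0.08 ± 0.10 and 0.07 ± 0.06.

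Vasomotor genes were split. Edn1, which encodes the constrictor endothelin 1, stood at 668 and 526 CPM in mutant members and 600 and 769 CPM in WT members, against 428 and 316 CPM in mutant and 430 and 391 CPM in WT remaining cells. The members were above the remaining cells in each library, with a ratio of 0.71 ± 0.21. Nos3, endothelial nitric oxide synthase, had a ratio of 0.25 ± 0.08, and Ptgs1, cyclooxygenase 1, was low, at 19.8 and 16.8 CPM in mutant and 19.6 and 11.1 CPM in WT members, against 55.3 to 84.2 CPM in the remaining cells, a ratio of -1.90 ± 0.29. In the BMP pathway, in which loss of the receptor Bmpr2 causes heritable pulmonary arterial hypertension, Bmpr2 had a ratio of 0.19 ± 0.09, the inhibitory Smad6 0.70 ± 0.19 and the ligand Bmp4 0.83 ± 0.35, and 10 of 20 genes were higher and 4 lower in all 4 libraries. The flow-responsive Klf2 and Klf4 had ratios of 0.15 ± 0.07 and 0.06 ± 0.02. Plat, tissue plasminogen activator, was higher by 0.98 ± 0.34 and stood at only 43.2 CPM in the venous gate.

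On the low side were genes that other endothelial classes favour and transcripts of other cell types. S100a9 of neutrophils had a ratio of -1.36 ± 0.41 and Sftpc, surfactant protein C of alveolar type 2 cells, -1.12 ± 0.48. In the Ptprc cells S100a9 stood at 5830 to 28798 CPM and Sftpc at 53.5 to 685 CPM. Low S100a9 was not particular to the members. Its means in members, venous gate, aerocyte gate and remaining cells were 18.4, 17.7, 22.3 and 50.7 CPM. For Sftpc they were 39.9, 41.1, 92.1 and 101 CPM. The remaining cells were shallower than the members, and the part of depth in these ratios was not tested. Vegfc, a lymphangiogenic factor, had a ratio of -1.33 ± 0.56, Car4, carbonic anhydrase 4 of aerocytes, -1.10 ± 0.48, Lbp -1.03 ± 0.21, Aplnr -0.97 ± 0.16 and Ramp3, a receptor activity-modifying protein, -0.95 ± 0.35. Lbp and Aplnr averaged 25.5 and 26.8 CPM in members, 27.1 and 28.2 CPM in the aerocyte gate and 228 and 36.6 CPM in the venous gate. Ccl21a, the lymphatic chemokine, was lowest at -4.33 ± 1.87, but it is counted with near-identical copies and its levels differed widely between libraries. Kdr stood at 214 and 200 CPM in mutant and 188 and 189 CPM in WT members, against 276 and 248 CPM in mutant and 282 and 243 CPM in WT remaining cells, a ratio of -0.40 ± 0.12. Of 22 interferon-response genes over 20 CPM, 16 were lower and 1 higher in all 4 libraries (median -0.27), and of 14 MHC class I genes 9 were lower and 0 higher (median -0.18). Of 16 heat shock genes 9 were lower and 1 higher (median -0.13). Vegfa, in contrast, was higher by 0.41 ± 0.13, the highest ratio of the hypoxia list, in which 5 of 20 genes were higher and 1 lower.

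**Figure D3:**
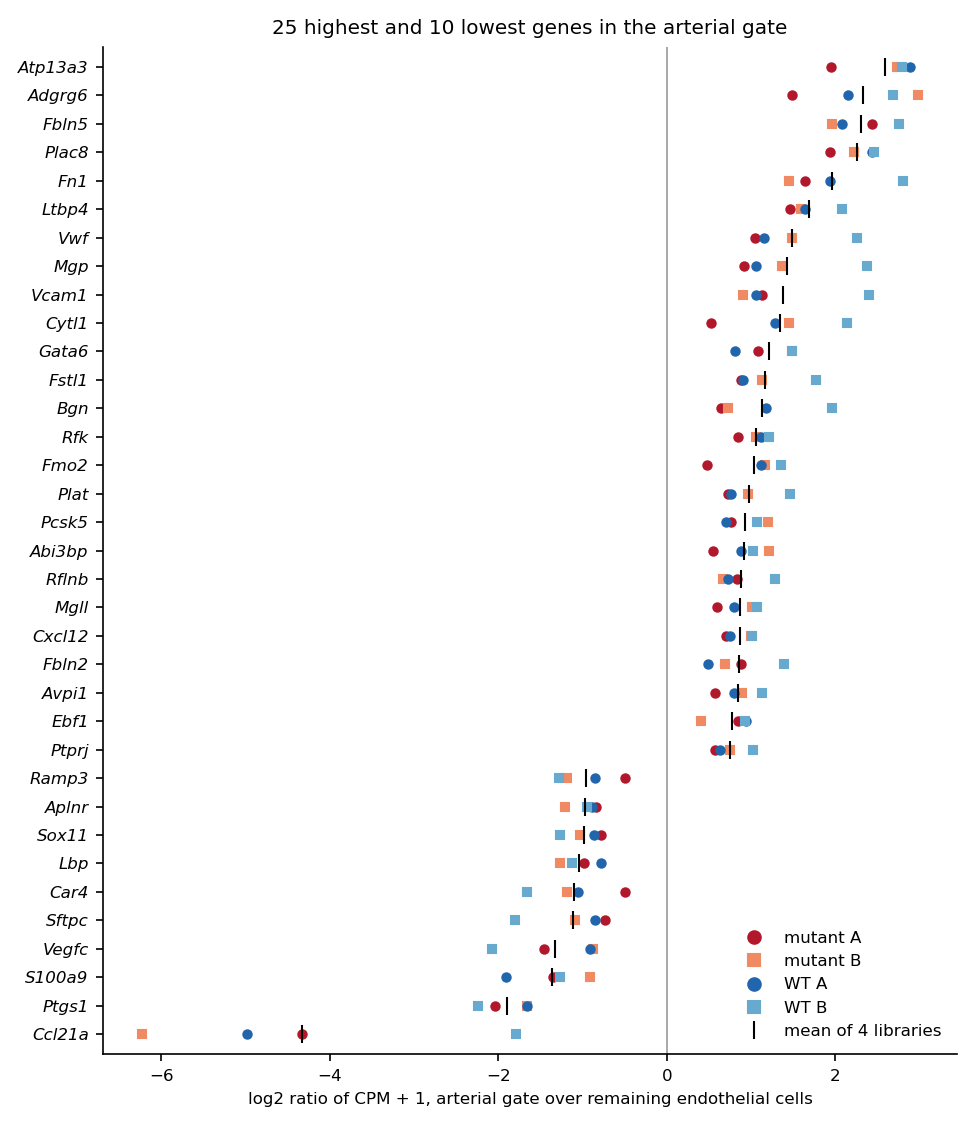
Log2 ratio of CPM + 1, arterial gate over remaining endothelial cells, for the 25 highest and 10 lowest genes outside the gate, with 1 point per library and a bar at the mean of 4 libraries. Atp13a3 leads with a mean of 2.59, WT B is the rightmost point for most matrix genes, and Ccl21a is lowest with a mean of -4.33.

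The share of arterial-gate cells was not separated between the genotypes among all kept cells. It was 2.04% (95% Wilson interval 1.81 to 2.31) and 2.17% (1.90 to 2.47) in mutant A and B, against 2.31% (2.06 to 2.60) and 1.66% (1.43 to 1.92) in WT A and B, where the intervals cover counting error only. The means were 2.10 ± 0.0876% in mutants and 1.98 ± 0.463% in WT (SD, n = 2 each; two-sided exact permutation p = 1.00). Without WT B the difference of 0.119 percentage points became -0.2085. Among endothelial cells the share was 3.97% and 3.98% in mutant A and B, above the 3.40% and 3.12% of WT A and B, with an exact permutation p of 0.33, the smallest that 2 against 2 libraries allow. With every cell thinned to 2000 UMIs, which left out 1525 and 1254 mutant and 1228 and 1060 WT cells, the share of endothelial cells was 1.15% and 1.17% in mutants and 0.968% and 0.945% in WT.

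Between the genotypes, no gene of the arterial-gate cells passed edgeR's quasi-likelihood test on the summed counts of 2 against 2 libraries. Of 9871 genes tested 0.0% were called at an adjusted p under 0.05, the smallest adjusted p was 0.228, and 226 genes (2.29%) had an unadjusted p under 0.05, with 1.04% of genes higher and 1.25% lower in mutants. DESeq2 called 2, Ager and Aqp5. The p-values measure the spread between 2 pools of mice per genotype. The count hung on single libraries: 11 genes were called without mutant A, 7 without mutant B, 45 without WT A and 26 without WT B, in fits that assume a lone library to vary like the other genotype's pair. Over all tested genes the median log2 fold change was -0.01, both mutant libraries were above both WT libraries in 17.6% of genes and below them in 10.0%.

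Kdr itself, which carries the mutation, differed by 0.08 on the log2 scale (SE 0.17, adjusted p = 1.00), and its level says nothing of the base change. The gate genes are given without a test. Gja5 averaged 78.9 ± 13.7 CPM in mutants and 90.5 ± 1.84 CPM in WT, Gja4 318 ± 46.0 and 333 ± 5.50 CPM, and Bmx 85.2 ± 2.35 and 78.0 ± 14.4 CPM (SD, n = 2 each). The genotypes overlapped in Gja4 and Bmx. Both mutant libraries had less Gja5 than either WT library, but mutant B (88.6 CPM) was close to WT B (89.2 CPM). Of all genes tested, 10.0% lay below in both mutant libraries.

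Of 31 arterial identity and Notch genes tested, 0 were called, 17 had positive and 14 negative fold changes, and 6 had both mutant libraries above both WT libraries, a share (19.4%) near the 17.6% of all genes. Dll4 stood at 133 and 166 CPM in mutants and 98.8 and 113 CPM in WT, and the libraries did not overlap. Its log2 fold change was 0.46 (SE 0.20, adjusted p = 1.00). Tox2, a transcription factor, stood at 46.7 and 48.2 CPM in mutants and 35.3 and 33.7 CPM in WT. Efnb2 (log2 fold change 0.26, SE 0.20), Hey1 (0.25, SE 0.21) and Sox17 (-0.05, SE 0.20) did not pass either.

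Esm1 and Cxcr4, which mark the leading tip cells of sprouting vessels, had the highest fold changes of the lists. Esm1 stood at 18.4 and 147 CPM in mutants and 4.71 and 8.32 CPM in WT, with a log2 fold change of 3.64 (SE 0.89, adjusted p = 1.00). Mutant B carried most of it: 342 of its UMIs lay in 36 of 219 cells, against 54 UMIs in 9 of 254 cells of mutant A and 12 and 18 UMIs in 8 cells each of WT A and B. Cxcr4 stood at 10.6 and 50.3 CPM in mutants and 6.67 and 6.01 CPM in WT (log2 fold change 2.19, SE 0.67, adjusted p = 1.00), again with mutant B highest. In the Ptprc cells Cxcr4 stood at 380 and 237 CPM in mutant and 315 and 214 CPM in WT libraries, above the members in every library, while Esm1 stayed at 0.383 to 0.927 CPM there. Without mutant B the log2 fold changes were 1.42 for Esm1 and 0.64 for Cxcr4. Adgrl3, an adhesion receptor named here after its values were seen, was even between pools, at 116 and 118 CPM in mutants and 67.8 and 66.1 CPM in WT (log2 fold change 0.75, SE 0.18, adjusted p = 1.00). The same gap in Adgrl3 stood in the remaining endothelial cells, at 165 and 141 CPM in mutant and 96.5 and 94.1 CPM in WT, and its interaction log2 value was 0.14 (SE 0.12).

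Heat shock and interferon genes leaned in opposite directions. All 16 heat shock genes tested had negative fold changes (median -0.37), and 0 were called. Both mutant libraries lay below both WT libraries in 8 of the 16, against 10.0% of all genes tested. Hspb1, a small heat shock protein, stood at 776 and 1169 CPM in mutants and 1992 and 1286 CPM in WT (log2 fold change -0.80, SE 0.29, adjusted p = 1.00). Hsp90aa1 stood at 1698 and 1770 CPM in mutants and 2508 and 2169 CPM in WT. Neither gene's libraries overlapped. Within the sets, the heat shock median was -0.49 in set A and -0.14 in set B.

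Of 24 interferon-response genes, 20 had positive fold changes (median 0.29), and 0 were called. Both mutant libraries were above both WT libraries in 9 (37.5%), against 17.6% of all genes tested. Ifi44 stood at 35.1 and 31.4 CPM in mutants and 20.4 and 17.6 CPM in WT (log2 fold change 0.75, SE 0.22, adjusted p = 1.00), without overlap. Gbp3, a guanylate-binding protein, stood at 98.2 and 80.9 CPM in mutants and 74.5 and 52.2 CPM in WT. The medians of the interaction values were 0.04 for heat shock and 0.05 for interferon genes, against 0.02 over all 13328 genes tested, so neither list stood far from the median of all genes in that test.

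The hypoxia list had 16 negative and 6 positive fold changes among 22 genes (median -0.25), and 0 were called. Without overlap, 4 (18.2%) lay below and 3 (13.6%) above, against 10.0% and 17.6% of all genes tested. P4ha2, a collagen prolyl hydroxylase subunit, stood at 46.7 and 50.8 CPM in mutants and 74.5 and 64.2 CPM in WT, and Slc2a1, the glucose transporter GLUT1, at 9.89 and 14.2 CPM in mutants and 16.5 and 26.3 CPM in WT. Of 24 matrix genes, 15 had negative fold changes (median -0.10) and 6 lay below and 2 above without overlap. Bgn stood at 107 and 92.9 CPM in mutants and 122 and 200 CPM in WT (log2 fold change -0.74, SE 0.24, adjusted p = 1.00). For matrix genes the median stood at 0.23 in set A and -0.40 in set B, where WT B was the library with the most Mgp, Fbln5 and Vwf. Mgp stood at 575 and 633 CPM in mutants and 422 and 1263 CPM in WT, so its WT libraries lay on both sides of the mutants. Markers of mesenchymal cells also had negative fold changes: all 4 smooth muscle (median -1.36), both pericyte (median -0.83) and all 6 fibroblast genes tested (median -0.50), with 0 called. The 8 smooth muscle markers summed to 20.1 and 40.9 CPM in mutants and 45.1 and 91.0 CPM in WT. The genotypes overlapped in the sums of the 8 pericyte markers, at 37.9 and 21.5 CPM in mutants and 73.7 and 22.6 CPM in WT. They also overlapped for the 10 fibroblast markers, at 115 and 117 CPM in mutants and 190 and 110 CPM in WT. The fibroblast median was -0.99 in set A and 0.36 in set B. Acta2, smooth muscle actin, had 12 and 2 UMIs in mutants and 12 and 71 UMIs in WT, of which 36 lay in 1 cell of WT B. The part of such cells in the matrix values was not tested.

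Of the other lists, BMP and TGF-beta genes had a median of -0.11 (8 positive, 13 negative), VEGF and Tie signalling genes 0.07 (14 and 4), gap junction and vasomotor genes 0.09 (12 and 6), junction and permeability genes 0.02 (10 and 8), flow-responsive genes -0.02 (5 and 8), MHC class I genes 0.12 (11 and 3) and MHC class II genes -0.28 (1 and 6), and 0 were called in each. In MHC class II, 3 of 7 (42.9%) lay below without overlap, against 10.0% of all genes tested. General capillary markers had a median of 0.23 (6 and 1), with 0 called. Of these 7 markers, 4 (57.1%) lay above without overlap, against 17.6% of all genes tested. Plvap, the diaphragm protein of fenestrae and caveolae, stood at 219 and 543 CPM in mutants and 144 and 285 CPM in WT, so the B library was the higher of each genotype and the genotypes overlapped.

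**Figure D4:**
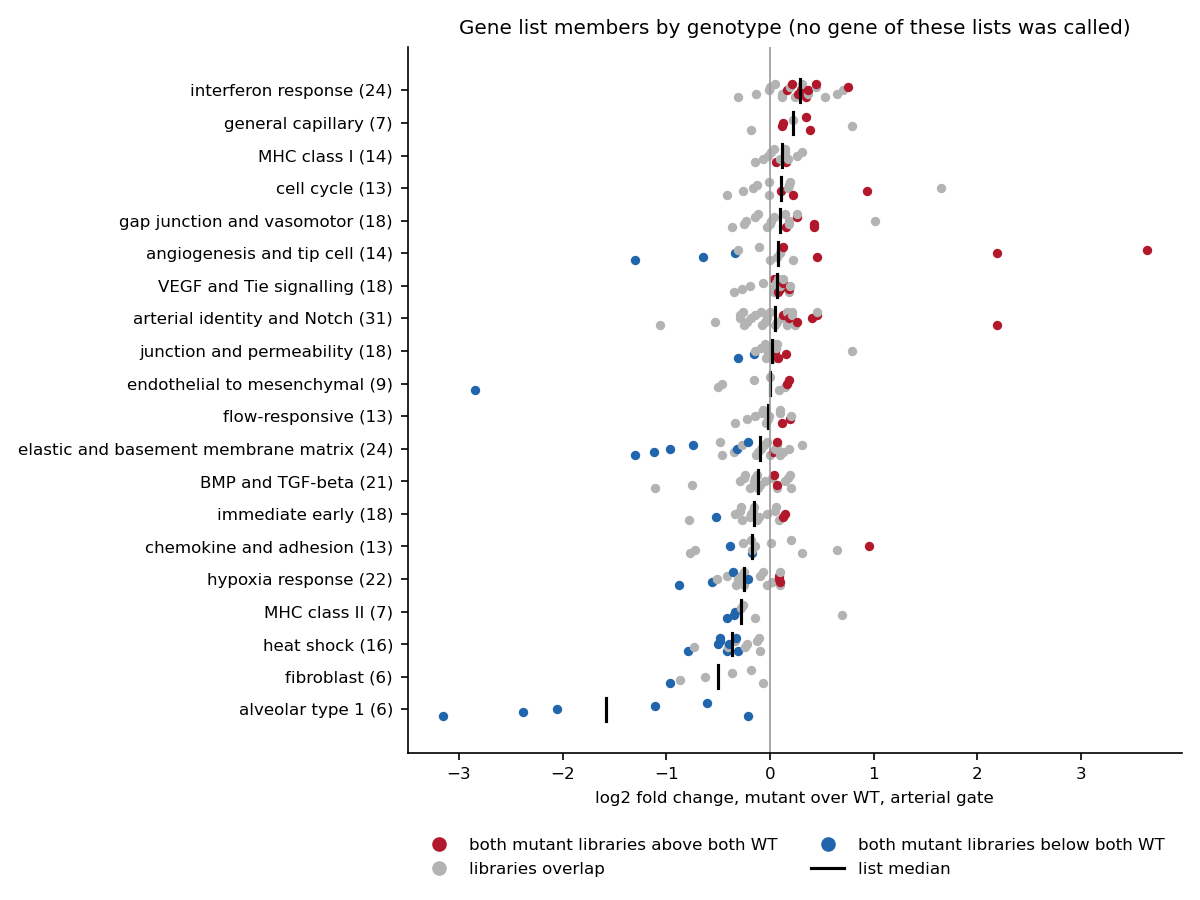
Log2 fold change of mutant over WT in the arterial-gate cells for each tested member of the lists with at least 6 tested genes, with the number tested in brackets and a bar at the list median. Heat shock genes all lie left of 0 and most interferon-response genes right of it, and no member was called. The 6 alveolar type 1 genes have the lowest list median, at -1.58, and reach from -3.16 (Aqp5) to -0.22 (Clic5).

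The genes with the smallest p-values were those of another cell type. Aqp5, Ager, Alcam, Rtkn2, Col4a3, Col4a4 and Pdpn, 7 of the 10 genes of smallest p, are known from alveolar type 1 cells, the flat epithelial cells that face the capillaries, and the other 3 were Des, Col4a5 and Cyp2b10. Ager, which encodes the receptor RAGE, stood at 23.5 and 42.2 CPM in mutants and 113 and 151 CPM in WT (log2 fold change -2.06, SE 0.29, adjusted p = 0.228). Aqp5, a water channel, stood at 1.36 and 3.01 CPM in mutants and 20.8 and 16.2 CPM in WT (log2 fold change -3.16, SE 0.44, adjusted p = 0.228). All 6 alveolar type 1 markers (Ager, Hopx, Rtkn2, Aqp5, Clic5, Akap5) had both mutant libraries below both WT libraries, against 10.0% of all genes tested. Their summed level was 904 and 899 CPM in mutants and 1205 and 1147 CPM in WT. Clic5 made up most of it, at 769 and 714 CPM in mutants and 872 and 789 CPM in WT. The same 6 genes summed to 1923 to 2361 CPM in the aerocyte gate and 1173 to 1282 CPM in the remaining cells. The sum is therefore no measure of alveolar type 1 RNA. None of the 6 was at 0 in any library.

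In WT, few cells held most UMIs of Ager and Aqp5. The cell with the most Ager had 15 of 69 UMIs in mutant A and 38 of 98 in mutant B, against 233 of 287 in WT A and 202 of 326 in WT B. In WT A, 46 of 53 Aqp5 UMIs were also in 1 cell. Members with at least 2 of Ager, Rtkn2 and Aqp5 numbered 2 and 2 in the mutants and 6 and 7 in WT. Without such cells, which was tried after the values were seen, the log2 fold change of Ager was 1.08, against -2.06 with them, and Aqp5 was not tested. The cells were chosen on Ager and Aqp5 themselves, so this setting is no separate test of either gene. In the Ptprc cells Ager stood at 217 and 267 CPM in mutant and 148 and 238 CPM in WT libraries, above the members.

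**Figure D5:**
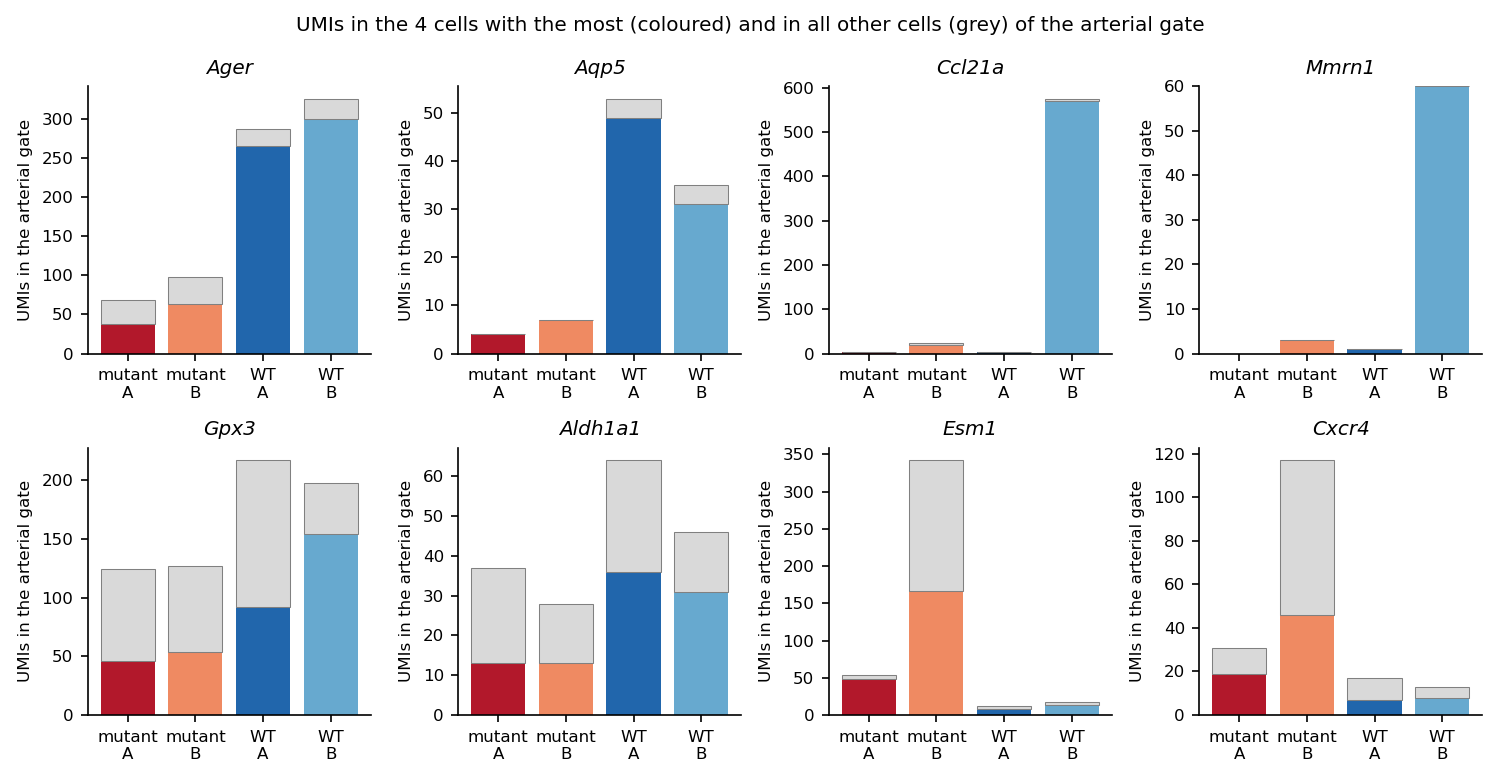
UMIs per library in the arterial gate for 8 genes, with the 4 cells that held the most in colour and all other members in grey. In WT B nearly all of the 575 Ccl21a and all 60 Mmrn1 UMIs lie in 4 cells, most Ager UMIs of both WT libraries lie in 4 cells each, and Esm1 is highest in mutant B with 342 UMIs.

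Whether the genotype difference was the same in arterial-gate cells and in the remaining endothelial cells of the same libraries was tested with an interaction term in edgeR. It was called for 7 of 13328 genes (0.0525%), all with a lower mutant-over-WT change in the arterial gate, and 609 genes (4.57%) had an unadjusted p under 0.05, with 2.28% positive and 2.29% negative. DESeq2 called 1 gene, Gpx3. The genes were the lymphatic Ccl21a and Mmrn1, the alveolar type 1 genes Ager, Aqp5 and Alcam, and Gpx3 and Aldh1a1. No gene of arterial identity was among them, and Dll4 had an interaction log2 value of 0.32 (SE 0.10, adjusted p = 0.818).

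Gpx3, an extracellular glutathione peroxidase, stood at 42.3 and 54.6 CPM in mutant and 85.1 and 91.5 CPM in WT arterial-gate cells, against 80.1 and 54.1 CPM in mutant and 46.1 and 52.1 CPM in WT remaining cells. The WT libraries were the higher ones inside the gate and the lower ones outside it, and the interaction log2 value was -1.31 (SE 0.20, adjusted p = 0.0294). In WT B, 2 cells held 145 of 198 Gpx3 UMIs, whereas in WT A the top 2 held 51 of 217. Aldh1a1, a retinaldehyde dehydrogenase, stood at 12.6 and 12.04 CPM in mutant and 25.1 and 21.3 CPM in WT arterial-gate cells, against 31.0 and 16.7 CPM in mutant and 13.2 and 14.7 CPM in WT remaining cells (interaction log2 value -1.69, SE 0.28, adjusted p = 0.0457). In the Ptprc cells Gpx3 reached 132 to 237 CPM and Aldh1a1 55.5 to 116 CPM, above the members of the same library.

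The lymphatic pair rested on 1 library. Ccl21a had 4 and 23 UMIs in the mutants and 4 and 575 UMIs in WT inside the gate, and 569 of the 575 lay in 4 cells. Mmrn1 had 0 and 3 UMIs in mutants and 1 and 60 UMIs in WT, and all 60 lay in 4 cells. Members with at least 2 of Prox1, Mmrn1, Reln and Ccl21a numbered 0 and 2 in mutants and 0 and 5 in WT. Without such cells the interaction value of Ccl21a was 0.70, against -4.09 with them. The cells were chosen on Ccl21a and Mmrn1 themselves, so this setting is no separate test of either gene. Without cells that had at least 2 of Ager, Rtkn2 and Aqp5, 1 interaction call was left, that of Ccl21a. The value of Ager was 0.95, against -1.95 with them, in a setting that chose the cells on Ager itself. In the same setting Gpx3 had -1.04 (adjusted p = 0.355), Aldh1a1 -1.49 (adjusted p = 0.180) and Alcam -2.11 (adjusted p = 1.00), so their direction stayed and their calls were lost. Without the cells of the highest doublet scores 2 calls were left, 1 of them shared with the 7. These scores marked 6 and 6 arterial-gate cells in the mutants and 20 and 6 in WT.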

How the data were processed

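Single-cell RNA of 4 lung libraries, 2 mutant and 2 WT, was analysed from the deposited matrices of whole-number UMI counts per gene and barcode, which the authors made with Cell Ranger 6.1.1, per the file headers. The submitters' processing notes name mm10, fastp, UMI-tools and Seurat 4.1.0. The alignment settings and the gene annotation are not given in the sources used here, and no deposited cell annotation was used. Cells with at least 500 genes, at least 1000 UMIs and under 15% mitochondrial UMIs were kept. Remaining endothelial cells had at least 2 UMIs of Cdh5 and Cldn5 together and were in no gate. The members, gates and gene lists were chosen with earlier results of these data known.

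UMI counts were summed per library and class and tested with edgeR 4.0.16 (quasi-likelihood, TMM, Benjamini-Hochberg adjustment, R 4.3.3), on all genes that passed filterByExpr. DESeq2 1.42.0 was an alternative. Both tests were tested on simulated counts, with the same spread setting for all genes and changed genes chosen above a count limit. Of 100 genes changed by 1 log2 unit, the genotype test recovered 59% and the interaction test 96%. At 2 log2 units both recovered 100%. False calls numbered 9 in the genotype test and 3 in the interaction test. Genes named are the 10 of smallest p, the members of each list with the smallest p, the interaction calls and the 25 highest and 10 lowest ratios. Other genes named, and the splits of members by the gate genes they carried, were chosen after their values were seen. Scrublet (scanpy 1.11.5) marked 0 to 464 cells per library at its automatic threshold, so doublets stayed in and the cells of highest score were removed only as an alternative. Intervals cover counting error only, and p-values measure the spread between 2 pools per genotype. Ccl21a has near-identical copies, so its counts are uncertain.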

Additional observations from a re-analysis of the deposited data

Results flagged for a closer look

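For 7 genes the mutant-over-WT difference in arterial-gate cells differed from that in the remaining endothelial cells of the same libraries, by the edgeR interaction test. The interaction log2 value was -4.09 for Ccl21a, -4.26 for Mmrn1, -1.95 for Ager, -3.05 for Aqp5, -2.87 for Alcam, -1.31 for Gpx3 and -1.69 for Aldh1a1. Alcam stood at 1.71 and 3.01 CPM in mutant and 10.98 and 18.5 CPM in WT arterial-gate cells. Without cells that had at least 2 alveolar type 1 genes, the calls of Gpx3 (-1.04), Aldh1a1 (-1.49) and Alcam (-2.11) were lost with the direction kept. Without cells that had at least 2 lymphatic genes, these 3 genes kept their calls, at -1.33, -1.70 and -2.85.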

How the results depend on the processing

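The count of genes called between the genotypes was 0, and became 2 with DESeq2, 57 without a count filter, 24 (9 higher, 15 lower) with the replicate block and 7 to 45 with 1 library left out. It stayed at 0 with at least 3 gate genes, without high doublet scores, under the stricter cell filter and without the haemoglobin limit. The set letters pair the libraries only by name, since the labels do not say what they mark, and the deviations of same-lettered libraries had a correlation of 0.302 over 9871 genes. The interaction count was 7, and became 1 with DESeq2, 76 without a count filter, 17 with at least 3 gate genes, 2 without high doublet scores, and 29 to 84 with 1 library left out. In settings chosen after seeing the data it was 11 without Dkk2 cells, 1 without cells with alveolar type 1 genes and 5 without cells with lymphatic genes. The share difference was 0.119 percentage points of kept cells, 0.714 of endothelial cells, and -0.2085 to 0.446 with 1 library left out.

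Directions turned as follows, and the cause was not tested. The log2 fold change of Ager was 0.15 without high doublet scores and 1.08 without cells with alveolar type 1 genes. With at least 3 gate genes Ddah1 was at -0.069, Yes1 at -0.20 and H2-Eb1 at 0.085, and Hmox1 was at 0.17 without cells with lymphatic genes. The interaction value with at least 3 gate genes was 1.27 for Ccl21a, 4.06 for Ager, 1.18 for Aqp5, 0.51 for Mmrn1, 1.91 for Alcam, 0.077 for Pdpn and 0.35 for Col4a4. It was 0.70 for Ccl21a without cells with lymphatic genes, and for Ager 0.12 without high doublet scores and 0.95 without cells with alveolar type 1 genes. With 1 library left out, where a lone library is assumed to vary like the others, WT B turned Htra1 (-1.71 to 0.0218), Nfe2l2 (-0.631 to 0.0372), Hmox1 (-0.46 to 0.0491), Ccn2 (-1.80 to 0.165), Myc (-1.96 to 0.688), Egr3 (-0.64 to 0.17) and Vcam1 (-1.58 to 1.14). Mutant B turned Bdkrb2 (-0.0227 to 1.67) and Plvap (-0.0609 to 1.37), and WT A turned Flt4 (-0.126 to 0.54). Mutant A turned Gch1 (-0.849 to 0.0164), Plcg1 (-0.099 to 0.423), Ciita (-0.288 to 1.26), Tap1 (-0.0689 to 0.518), Tagln (-1.52 to 0.152), Top2a (-1.95 to 2.76) and Sox17 (-0.257 to 0.135).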
